A study of Caenorhabditis elegans with 2 samples.

Results

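The SET-16 binding peaks on the X chromosome of Caenorhabditis elegans were all the records that the authors' conservative peak list places on X. There were 944 of them among the 5795 peaks of that list, which covers the 5 autosomes and X. The peaks come from chromatin immunoprecipitation followed by sequencing (ChIP-seq) of whole L4 larvae aged 48 hours, in 2 biological replicates of 1 group. The strain, RW12223, carries st12223[set-16::TY1::EGFP::3xFLAG] III, an insertion made by CRISPR at set-16 itself, so that the tagged protein is made from its own gene. Larvae were synchronized by starving the L1 stage after bleaching, chromatin was sheared by sonication, and the tagged protein was captured with an antibody against GFP. The control experiment that the labels name was not analysed here, nor was an untagged strain. Because whole animals were used, a site bound strongly in few cells and a site bound weakly in many cannot be told apart.

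SET-16 is the worm relative of the mammalian MLL3 and MLL4 enzymes, which methylate lysine 4 of histone H3, a modification found at active gene starts and enhancers. It works in a complex of the COMPASS type with subunits shared by other histone methyltransferases, and it has been linked to restraint of Ras signalling in vulval development in the worm. The X chromosome of C. elegans is handled apart from the autosomes: hermaphrodites carry a pair and males carry a lone copy, and a condensin-containing dosage compensation complex loads onto both hermaphrodite X chromosomes and lowers their transcription. The complex is recruited at sites on X that share a GC-rich sequence motif. In the germ line X is largely silent, and genes with germline functions are scarce on it.

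Each peak is an interval with a summit, the position of highest enrichment, and a signal value assigned by the authors' peak caller. The scale of that signal is not stated, so it was used to rank peaks and to compare peaks within a list. The sequences under 4 of the 6 X peaks of highest signal are shown as examples of high GC content at strong peaks, not of the typical X summit. They are 151 bp windows centred on the summit, read 5′ to 3′ on the forward strand of the RefSeq WBcel235 assembly, and capitals mark runs of at least 6 G or C bases. The windows lie at chrX:8017350-8017500 (an intron of unk-1), chrX:9999644-9999794 (noncoding exons upstream of grk-1), chrX:10637394-10637544 (an intron of daf-12) and chrX:13145203-13145353 (an intron of F09A5.3).
unk-1: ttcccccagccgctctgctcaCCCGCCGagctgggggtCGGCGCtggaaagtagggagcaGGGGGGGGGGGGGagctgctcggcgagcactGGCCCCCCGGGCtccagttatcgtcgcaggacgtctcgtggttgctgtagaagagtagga
grk-1: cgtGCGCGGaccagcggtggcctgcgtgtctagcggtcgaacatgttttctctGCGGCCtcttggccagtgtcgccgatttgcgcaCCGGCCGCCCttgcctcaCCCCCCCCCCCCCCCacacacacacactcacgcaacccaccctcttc
daf-12: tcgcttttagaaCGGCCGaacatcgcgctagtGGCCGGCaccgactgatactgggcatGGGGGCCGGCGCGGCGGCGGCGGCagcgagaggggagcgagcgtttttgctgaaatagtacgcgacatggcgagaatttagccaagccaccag
F09A5.3: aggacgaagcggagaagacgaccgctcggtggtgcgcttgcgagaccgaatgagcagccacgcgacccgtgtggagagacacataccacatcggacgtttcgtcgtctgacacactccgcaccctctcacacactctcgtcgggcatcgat
The GC content of these windows was 68.9% at unk-1, 67.5% at grk-1, 62.9% at daf-12 and 60.9% at F09A5.3. The unk-1, grk-1 and daf-12 windows held runs of up to 13, 15 and 24 G or C bases. The F09A5.3 window held none, so a high GC content was reached there without a long run.

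A second set of sequences, 40 bp each, comes from X peaks whose summit window contained the core letters of the dosage compensation motif, GCGCAGGG, written in capitals. They are shown because this motif is known from recruitment sites of the dosage compensation complex on X; its share on each chromosome is given further on. Each is named by the gene with the nearest start. Y15E3A.5 (chrX:15340915-15340954) and F20B6.9 (chrX:4209250-4209289) are on the reverse strand. F41G4.8 (chrX:16843046-16843085), WBGene00020828 (chrX:1837876-1837915), R09A8.2 (chrX:12618659-12618698) and svh-5 (chrX:15373947-15373986) are on the forward strand.
Y15E3A.5: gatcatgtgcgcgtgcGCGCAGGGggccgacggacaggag
F41G4.8: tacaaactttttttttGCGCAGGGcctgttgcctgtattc
WBGene00020828: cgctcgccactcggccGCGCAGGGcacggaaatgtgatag
R09A8.2: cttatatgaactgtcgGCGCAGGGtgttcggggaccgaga
svh-5: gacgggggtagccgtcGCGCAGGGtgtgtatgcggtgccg
F20B6.9: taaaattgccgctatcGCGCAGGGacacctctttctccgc
The flanks of the core differed from peak to peak. The distance from the centre of the core to the summit was 3 bp at F20B6.9, 10 bp at WBGene00020828, 31 bp at svh-5, 46 bp at Y15E3A.5, 62 bp at R09A8.2 and 87 bp at F41G4.8. The Y15E3A.5 and svh-5 sites lie in introns and the other 4 were annotated as intergenic. The summit of the WBGene00020828 site nevertheless lies within the span of WBGene00020829, a gene that is not protein-coding, outside its exons.

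The 944 summits fell in 904 distinct intervals, of which 40 held 2 summits, and the intervals covered 325 kb, or 1.83% of X. The intervals were 111 to 994 bp wide with a median of 409 bp, against a median of 442 bp on the autosomes. A width of exactly 444 bp was given to 307 X peaks, whose median signal was 105, against 234 for the 637 X peaks of other widths. Only 24.4% of the 444 bp peaks (exact 95% interval 19.7 to 29.6%) overlapped a peak in each replicate's own list, against 83.4% of the others (80.2 to 86.2%). X had 53.3 peaks per Mb, inside the autosomal range of 46.5 (V) to 69.5 (I). Signal on X ran from 6.06 to 2834 with a median of 174, also within the range of the chromosome medians, 158 to 187.

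Along X the summits were densest towards the right end and sparse in the middle. When X was divided into 3 equal lengths, the left held 343 summits (36.3%), the centre 198 (21.0%, exact 95% interval 18.4 to 23.7%) and the right 403 (42.7%). Gene starts were spread evenly by comparison, with 31.9%, 35.7% and 32.4% of the X protein-coding starts in the same order. The centre therefore had the most gene starts and the fewest summits.

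In bins of 1 Mb, the 17th bin, from 16 to 17 Mb, held 115 peaks and the 16th held 102. The 2nd bin, from 1 to 2 Mb, followed with 83. The sparsest were the 10th bin, from 9 to 10 Mb, with 21 peaks, the 11th with 31, and the 7th and 12th with 33 each. Peak numbers in the replicates' own lists had the same shape: the 17th bin held 108 and 82 peaks in replicates 1 and 2, and the 10th held 25 and 17. Over the 17 whole bins the replicate counts had a Spearman coefficient of 0.928, a description of bins that share the same libraries.

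Neighbouring X summits were a median of 7.86 kb apart, and 131 of the 943 gaps were shorter than 1000 bp. At the other extreme 26 gaps exceeded 100 kb, the longest being 207 kb, from 12665222 to 12872490. The high peak upstream of bcat-1, with its summit at 12876948, lies just beyond the right end of that gap.

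**Figure D1:**
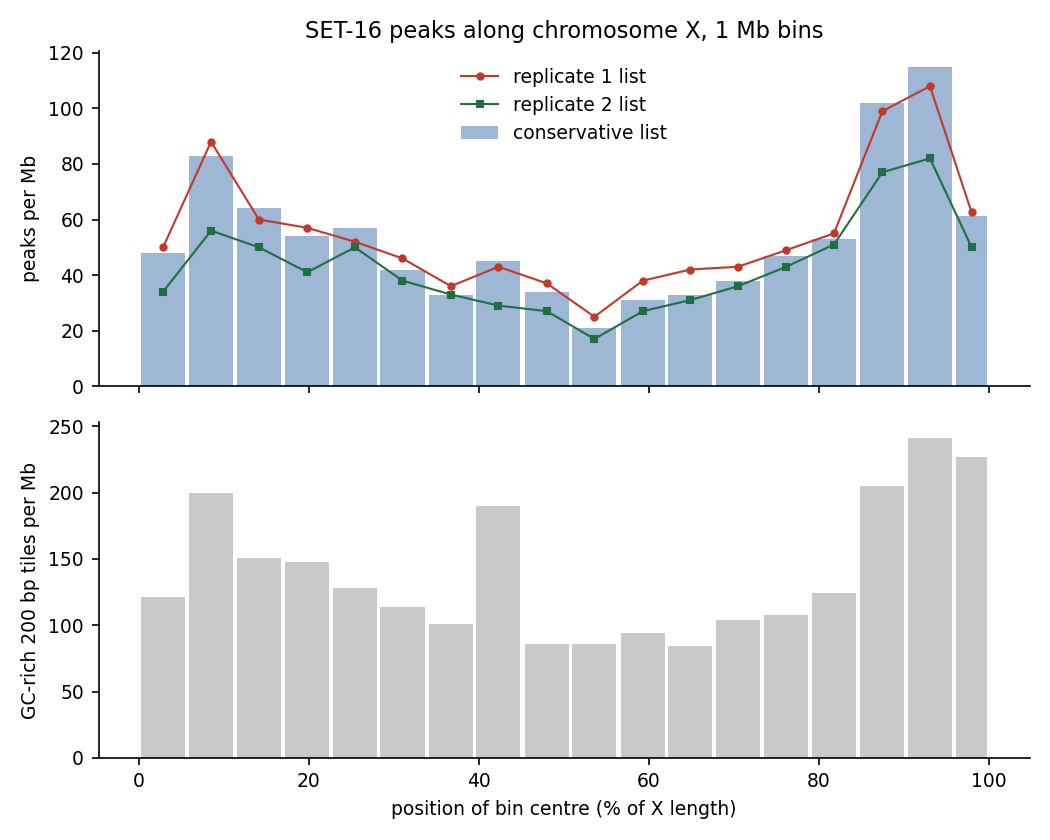
Peaks per Mb in 1 Mb bins along X (upper panel) for the conservative list (bars) and each replicate's own list (lines), with the density of GC-rich 200 bp tiles below. Position is in percent of X length; the 17th bin has 115 peaks and the 10th has 21, and the 8th bin has many GC-rich tiles and few peaks.

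Base composition followed this profile closely. X was divided into 200 bp tiles, and a tile with at least 50% G or C was called GC-rich; only 2.76% of X tiles qualified, whereas 85.5% of X summits (807 of 944) had that GC content within 100 bases to each side. Over the 17 bins, the Spearman coefficient of peak number was 0.915 with GC-rich tiles and -0.431 with gene starts, given as a description of neighbouring bins of the same chromosome. The centre was low in peaks and in GC-rich tiles, with 25.5% of the latter. In addition a GC-rich tile in the centre held a summit less often: 22.7% did, against 29.7% on the left and 30.8% on the right. The 8th bin, from 7 to 8 Mb, had 190 GC-rich tiles but 45 peaks, and 19.5% of those tiles held a summit. That share was lower still in the 10th bin, at 17.4% of 86 GC-rich tiles.

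The central share of summits was above that of all 5 autosomes, which ran from 13.8% (II) to 18.8% (IV). With the replicate 2 list alone the X share was 21.5%, inside the autosomal range of 17.8 to 21.8%, so its place above the autosomes depended on the list used. The share of GC-rich tiles in the centre was likewise larger on X (25.5%) than on the autosomes, where it ran from 12.9% to 20.5%.

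The share of tiles that held a summit rose steeply with GC content on X. It was 0.406% of tiles at 40 to 45% GC, 3.04% at 45 to 50%, 19.2% at 50 to 55%, 54.7% at 55 to 60% and 73.2% (64.0 to 81.1%) at 60% or more. The autosomes followed the same course, with 59.2 to 74.8% in the highest class. Signal went with GC too: across the 944 peaks, which share libraries, the Spearman coefficient between summit GC and signal was 0.627.

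**Figure D2:**
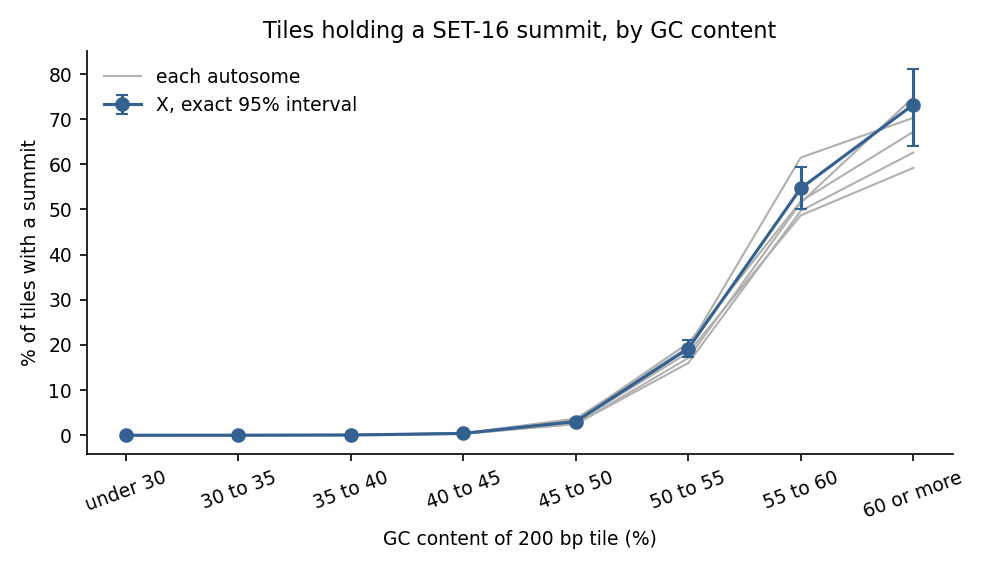
Percent of 200 bp tiles holding a conservative-list summit, by GC content of the tile, for X (points with exact 95% intervals) and for each autosome (grey lines). The X line runs among the autosomal lines and reaches 73.2% in the highest GC class.

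X peaks differed from autosomal peaks in where they lay relative to genes. Each summit was given 1 annotation from the Ensembl gene models, coding exon first, then untranslated exon, exon of a noncoding gene, intron and intergenic. Where no protein-coding gene overlapped, introns of noncoding genes were counted as intergenic. Coding exons held 270 X summits, or 28.6% (exact 95% interval 25.7 to 31.6%), whereas 44.8 to 53.5% of the summits on each autosome were in coding exons. Intergenic sequence held 334 (35.4%, 32.3 to 38.5%), above the 21.1 to 25.4% of the autosomes. Exons of noncoding genes held 134 (14.2%, 12 to 16.6%), above the 6.11 to 7.91% of the autosomes. Introns held 182 (19.3%), within the autosomal range of 16.2 to 20.2%, although the X share was above every autosome in the lists of replicate 1 (19.1%), of replicate 2 (20.4%) and of the higher-signal peaks (19.9%); untranslated exons held 24 (2.54%).

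The GC-rich tiles of X differed from those of the autosomes in the same direction. Coding exons made up 34.6% of them on X and 47.2 to 56.0% on the autosomes, and noncoding exons made up 11.0% on X and 4.22 to 7.07% on the autosomes. Intergenic sequence made up 34.2% of them on X and 17.5 to 25.4% on the autosomes. Within coding exons, noncoding exons and intergenic sequence, the share of GC-rich tiles that held a summit was close on X and the autosomes. It was 26.2% against 27.7% in coding exons, 27.3% against 26.8% between genes, and 33.8% against 31.9% in noncoding exons. In introns it was 30.6% on X, above the 25.8% of the autosomes together and their range of 24.0 to 27.7%. The lower coding share of X summits was present in every peak list tried, at 24.8 to 29.4% against an autosomal minimum of 39.6%.

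**Figure D3:**
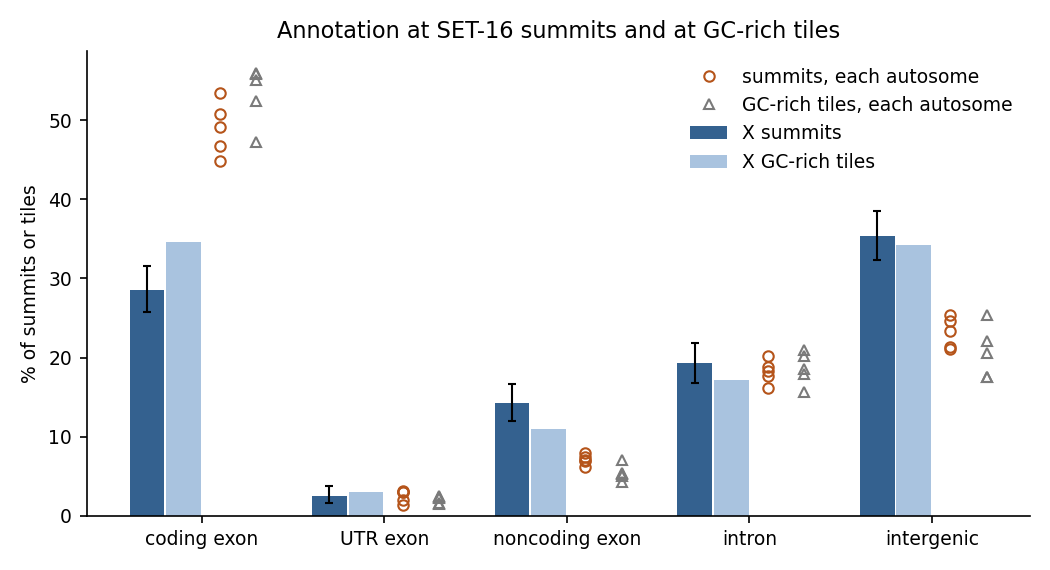
Percent of X summits (dark bars, with exact 95% intervals) and of X GC-rich tiles (light bars) in each annotation class, beside the same shares for each autosome (circles for summits, triangles for tiles). X lies below the autosomes for coding exons, at 28.6% of summits, and above them for noncoding exons and intergenic sequence.

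At bases that the assembly marks as repetitive lay 16.4% of X summits, against 30.6% of the length of X. On the autosomes such bases held fewer summits, 11.1 to 14.5%, and made up more of the length, 33.9 to 39.9%.

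A gene start window was taken as 1000 bp upstream to 200 bp downstream of the start of a protein-coding gene. It held 220 X summits (23.3%, 20.6 to 26.1%), while such windows make up 17.6% of X, a ratio of 1.32. The ratio was 0.987 over the autosomes together and 1.2 on chromosome I. The X share of 23.3% was within the autosomal range of 19.2% (III) to 24.3% (I). A GC-rich tile in a start window held a summit in 35.4% of cases on X and 31.1% on the autosomes together. X was within their range for these tiles too, 26.6% (V) to 37.1% (III). The median distance from an X summit to the nearest gene start was 1804 bp, against 1932 bp for all X tiles.

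By gene, 223 of the 2731 protein-coding genes on X (8.17%, 7.17 to 9.26%) had a summit in their start window, against 6.99% of all nuclear protein-coding genes and 6.81% of the autosomal ones. X was within the range of the autosomes, 4.99% (V) to 9.59% (I). Of the 223 genes, 151 also had a summit there in each replicate's list. The summit was upstream of the start at 188 of them, and within 200 bp of it at 84. GC content separated the genes more than the chromosome did: 39.9% of the 456 X genes with a GC-rich tile in the window had a peak, against 1.80% of the 2275 without. The autosomal values were 36.7% and 1.92%.

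The 15 X peaks of highest signal were all called in both replicates, and 9 of them lay in a gene start window. Their GC content was 56.7 to 68.2%. All 15 had the higher signal in replicate 1, with a replicate 2 to replicate 1 ratio of 0.362 to 0.877.

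The highest, in an intron of unk-1, which encodes a CCCH zinc finger protein, had a signal of 2834 in the conservative list, 1593 in replicate 1 and 1249 in replicate 2. It was also 602 bp upstream of C34D10.5, a very short gene model. The next, 511 bp upstream of grk-1, the gene of a G protein-coupled receptor kinase, had 2750.2 in the conservative list and 1837 and 933 in the replicates. The peak 17 bp upstream of hsp-3 (summit at X 6092141), which encodes an endoplasmic reticulum chaperone of the BiP type, had 2223, with 1515 and 729. For scale, the 90th percentile of signal over the 944 X peaks was 621.

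ain-1 encodes a GW182-type partner of Argonaute in microRNA silencing, and the peak 644 bp upstream of it (summit at X 16612807) had 2199, with 1652 and 598 in replicates 1 and 2. This was the lowest replicate ratio of the 15. The peak in an intron of daf-12, the nuclear hormone receptor gene that governs developmental timing and dauer formation, had 1955, with 1402 and 565. That in an intron of F09A5.3, whose product is uncharacterized, had 1949, with 1256 and 696.

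The remaining peaks of the 15 were led by an intergenic one 1524 bp upstream of tmem-184, a transmembrane protein gene (summit at X 14708385), at 1800.0, and by one 704 bp upstream of F22F1.3, a KIX domain gene (X 8163777), at 1749. A peak inside eat-20, a gene needed for normal pharyngeal pumping, overlapped an exon of the noncoding gene H30A04.5 and reached 1559, with its summit at X 15516011. The gene starts of bcat-1, a branched-chain amino acid aminotransferase, epn-1, an epsin of endocytosis, and pdi-2, a protein disulfide isomerase, had upstream peaks of 1553, 1548 and 1352. The epn-1 and pdi-2 summits were at X 14818983 and X 4524110, and all 3 lay in exons of noncoding genes. The peak 1805 bp upstream of unc-1, a stomatin-like gene, had 1473 (summit at X 1064258), and the intron peak of kin-20, a casein kinase I gene of the developmental timing pathway, had 1387 (X 15275647). The coding exon peak in the cuticle collagen gene col-44 (X 13592197) had 1454 and was also 470 bp upstream of F54B11.4.

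Among start window peaks called in both replicates, these were followed by mdl-1, a Mad-like transcription factor gene, whose summit 73 bp upstream had 1326, with 888 in replicate 1 and 443 in replicate 2. F57G12.1, uncharacterized, had 1286 (859 and 434), and bet-2, which encodes a bromodomain protein, had 1212 (786 and 426). In all 3 genes replicate 1 was the higher.

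At the lower end, the summits of lowest signal were 8.58 in let-2, 7.29 at the tRNA gene WBGene00022929 and 6.06 in fox-1. None had a matching summit in a replicate's ranked list within 100 bp. The let-2 and tRNA intervals nevertheless overlapped called peaks in both replicates, and the fox-1 interval overlapped a peak of replicate 1 alone. All 3 were 444 bp wide.

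Replicate support on X was close to that of the whole list. Of the 944 X peaks, 606 (64.2%, 61.0 to 67.3%) overlapped a peak in both replicates' lists by at least 1 bp, against 61.8% of all peaks in the conservative list and 57.6 to 65.7% on the autosomes. Another 174 overlapped replicate 1 alone, 77 replicate 2 alone, and 87 neither. Support rose with signal. With the X peaks ranked into 4 groups of 236, the share found in both replicates was 18.2%, 53.4%, 85.6% and 99.6% from lowest to highest, and 85 of the 87 peaks found in neither were in the lowest group.

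The replicate 1 list had 973 peaks on X and the replicate 2 list 758. Of the replicate 1 peaks 64.5% overlapped a replicate 2 peak, and of the replicate 2 peaks 80.3% overlapped a replicate 1 peak. For 878 of the 944 peaks a summit within 100 bp was present in both ranked lists. Replicate 1 had the higher signal at 554 of them (63.1%), and the median ratio of replicate 2 to replicate 1 was 0.794, with autosomal medians of 0.728 to 0.820. Since the replicates' lists have no stated common scale, a ratio is informative only beside the ratio of other peaks.

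That ratio varied with GC content. It was 0.505 (median) at the 129 X peaks of at least 60% GC, 0.853 at the 678 peaks from 50 to below 60%, and 1.51 at the 107 peaks above 45 and below 50%. Only 1 of the 127 matched peaks of at least 60% GC had the higher signal in replicate 2. In step with this, the Spearman coefficient between GC and signal was 0.665 in replicate 1 and 0.428 in replicate 2, both over peaks of the same library. The part of base composition in the difference between replicates was not tested.

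**Figure D4:**
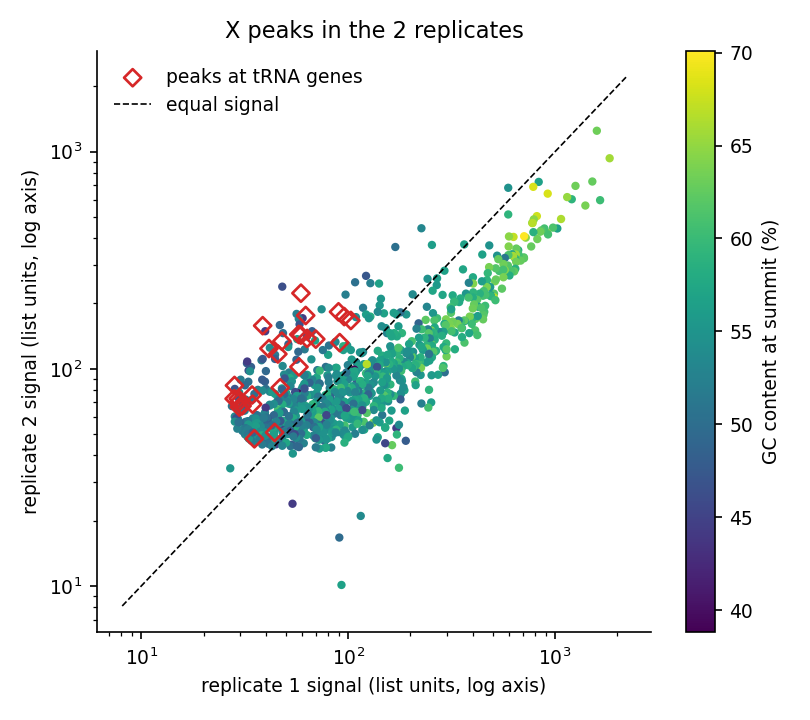
Signal of 878 matched X peaks in replicate 1 and replicate 2, both on log axes in the lists' own units, coloured by GC content at the summit, with the peaks at tRNA genes outlined. Peaks of high GC lie below the dashed line of equal signal, and all 26 matched tRNA peaks lie above it.

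Transfer RNA genes carry their own promoters inside the gene and are transcribed by RNA polymerase III. X holds 276 of them, and 32 (11.6%, 8.07 to 16%) had a summit within 100 bp, against 14.1% of all nuclear tRNA genes and 16.1% of the autosomal ones. The 32 genes shared 30 peaks, with the summit inside the gene in 16 cases. Their median signal was 141, their highest 279 and their median GC content 49.5%.

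Peaks at tRNA genes were another case in which the replicates differed. Of the 30 peaks, 28 overlapped a replicate 2 peak and 14 a replicate 1 peak, and all 26 with matched summits were higher in replicate 2, with a median ratio of 2.22. The other X peaks had a median ratio of 0.779, with 766 of 914 in the replicate 1 list and 655 in the replicate 2 list. Their median GC content was higher, 55.2% against 49.5%. X peaks above 45 and below 50% GC, some of them tRNA peaks, had a median ratio of 1.51. Of these, 60 of 88 matched peaks were higher in replicate 2. The part of GC content in the tRNA ratio was not tested. At the 53 autosomal tRNA peaks the median ratio was 1.93 and 39 of 50 matched peaks were higher in replicate 2. With 2 replicates, whether this is a property of 1 library was not tested. WBGene00023042, inside sulp-3, had a signal of 59.1 in replicate 1 and 223 in replicate 2. WBGene00014339, inside snx-17, had 89.8 and 183, and the intergenic WBGene00014626 had 103 and 167.

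Small noncoding genes annotated simply as ncRNA are numerous on X, 2520 in all, and 223 (8.85%) had a summit within 100 bp, against 8.41% of all nuclear ncRNA genes. The share was near the background. These include C34D10.3, F19C6.11, F19C6.9 and F09A5.11, which lie under the peaks of unk-1, grk-1 and F09A5.3. Among 74 X microRNA genes a summit lay within 100 bp of 1 (1.35%, 0.0342 to 7.30%, against 3.74% on the autosomes). That gene is listed as MI0000001 in Ensembl and let-7 in RefSeq at the same coordinates (X 14743590 to 14745321). RefSeq places the short gene models C05G5.7 and C05G5.8 inside that span, and the same summit is also in the start window of C05G5.7, so it cannot be assigned to let-7 alone. let-7 is a conserved microRNA that times the larval-to-adult transition. The summit there, with 63.7% GC, had a signal of 769 in the conservative list, 480.1 in replicate 1 and 294 in replicate 2, and was called in both.

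Among other noncoding classes, peaks lay near 2 of 38 (5.26%, against 7.69% on the autosomes) long intergenic RNA genes, linc-7 (132) and linc-78 (93.4), neither called in both replicates. They also lay near 1 of 33 small nucleolar RNA genes (3.03%, 0.0767 to 15.8%, against 12.1% on the autosomes), T27A8.9 (173), and near 13 of 178 pseudogenes (7.30%, against 6.41%).

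Within gene bodies, 518 X summits (54.9%) lay between the start and end of a protein-coding gene, in 361 of the 2731 genes (13.2%), against 13.0% of all nuclear protein-coding genes. Of these genes, 249 held 1 summit, 80 held 2 and 32 held at least 3. Genes with a summit were longer, with a median of 4.97 kb against 2.55 kb for all X genes.

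let-2 held the most, 10 summits in 8.74 kb, all in intervals called in both replicates and with signals from 8.58 to 512. It encodes the alpha 2 chain of type IV collagen of basement membranes, and 9 of its 10 summits were in coding exons. ZC8.6, a phosphatidylinositol 4-kinase gene, held 7 and lfi-1, which encodes a coiled-coil protein and overlaps ZC8.6, held 6. fox-1 held 6, of which 1 was called in both replicates. F52G3.1 and H18N23.2 held 5 each, and zfp-3, a CCCH zinc finger gene, held 4. vit-2, a yolk protein gene, also held 4, all in coding exons and all called in both replicates, with signals from 48.6 to 592.

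Cuticle collagen genes (col) encode the short repetitive collagens secreted by the epidermis at each molt. Of the 27 on X, 26 (96.3%, 81.0 to 99.9%) held a summit in the body, against 13.2% of all X genes, 13.0% of all nuclear genes and 106 of 129 (82.2%) of the autosomal col genes. A summit in the start window was present at 2 of the 27, col-44 and col-167 (7.41%), a share near the 8.17% of all X genes and 6.99% of all nuclear genes. Both are also body summits. The one counted for col-44 lies in a coding exon within the neighbouring col-9. The one counted for col-167 lies 83 bp downstream of its start, in a coding exon, and was in neither replicate's list. All 41 col summits were in coding exons, 39 of them called in both replicates, and they made up 15.2% of the coding exon summits of X. Their median signal was 327, and their median GC content was 60.2%. The highest signals after col-44 (1454) were 1271 in col-185, 1244 in col-176, 1222 in col-180 and 1129 in col-19, an adult-stage collagen gene. The exception was col-177, with no summit. Collagen coding sequence is rich in glycine and proline codons, and the part of base composition in these summits was not tested.

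Lists of genes by function were then read for X members with a start window peak. Across the 18 lists, 30 of 207 X genes (14.5%) had one, above the 8.17% of all X genes and 6.99% of all nuclear genes; the lists were chosen for known function and with earlier results in view. They do not hold every gene of their class, and the counts refer to the listed genes.

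Of the X genes of dosage compensation and sex determination, 1 of 6 had a start window peak. It was ceh-39, an X-signal element that represses xol-1, with 278 in the conservative list and 163 and 117 in replicates 1 and 2, 208 bp from its start. fox-1, an RNA-binding X-signal element, had none at its start but the 6 body summits given above, the highest at 208. sdc-1, which acts in recruiting the dosage compensation complex, had a body summit of 87.5. There was no summit at the start or in the body of sdc-2, sex-1 or xol-1, the last being the switch that sets male fate.

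None of the 5 listed histone methylation and demethylation genes on X, utx-1, jmjd-3.1, jmjd-3.2, lsd-1 and set-30, had a summit at its start or in its body. Outside the list, and named after their values were seen, dot-1.5, annotated as a histone H3 lysine methyltransferase gene, had a start window peak of 137, and R04E5.8, a JmjC domain gene, had one of 689. Among the endoplasmic reticulum chaperone and stress genes, 3 of 6 had a start window peak, with hsp-3 and pdi-2 (1352, 918 and 424 in the replicates) joined by atf-6, a stress transcription factor gene (930.2, with 643 and 289). dnj-7, pek-1 and pdi-6 had none there, and pdi-6 had a body summit of 164. On the autosomes 4 of 12 members of that list had a start window peak.

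Among the listed muscle structure genes 4 of 15 had a start window peak. They were the actin-binding gene unc-115 (915, with 635 and 281), the actin gene act-4 (582, with 382 and 213) and the myosin light chain genes mlc-2 (164) and mlc-1 (120.2). The product of unc-115, the highest of them, is annotated as involved in axon guidance, so its place among muscle structure genes is uncertain. All 4 were called in both replicates. A further group had body summits only, among them the troponin T genes tnt-2 (545) and mup-2 (259.8) and the pharyngeal myosin gene myo-2 (288). In all, 7 of the 15 genes (46.7%) had a body summit, against 13.2% of all X genes. Among the autosomal members of the list 20 of 34 (58.8%) had one.

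Of the 12 X genes of Ras signalling and vulval induction, 2 had a start window peak, dpy-23, a clathrin adaptor subunit gene (531, with 269 and 261), and lin-15B (113, called in replicate 1 alone). lin-2, a scaffold for the epidermal growth factor receptor, and dpy-22, a Mediator subunit, had body summits of 379.7 and 222. The other 8, egl-15, egl-17, gap-1, ksr-1, lin-18, sem-5, sli-1 and lin-15A, had none.

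Of the 3 listed protein-coding genes of developmental timing on X, daf-12 held 2 body summits, the highest at 1955, and lin-14, which encodes an early larval transcription factor, held 3, the highest at 1335. At its start lin-14 had a peak of 124, called in replicate 2 alone. hbl-1 had no summit at its start or in its body.

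In the 3 lists of neuronal genes the counts at gene starts were as follows. Of 10 neuron identity transcription factor genes on X, none had a start window peak, and unc-3 alone had a body summit (160.2). Of 34 neuropeptide genes 2 had one, ins-39 (131) and flp-32 (80.8), the latter called in neither replicate. Of 18 synapse, channel and axon guidance genes 3 had one: unc-10, which organizes synaptic vesicle release (283, with 159.7 and 127), lev-9 (203, with 59.0 and 143) and the acetylcholine receptor gene acr-12 (172, with 106 and 69.0). The lev-9 summit, 657 bp upstream of its start, was also in the start window of mom-1 and was among the tRNA gene peaks. The calcium channel gene unc-2 had a body summit of 961.

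Of the other families, 5 of 23 nuclear hormone receptor genes on X had a start window peak, led by nhr-48 (632) and nhr-1 (315). The peak counted for nhr-255 (271) was also that of the tRNA gene WBGene00014626. Of 18 ceh homeobox genes 2 had a start window peak, ceh-39 and ceh-30 (104). Both ribosomal protein genes on X, rpl-25.1 (202) and rpl-11.2 (93.4), and 2 of 4 histone genes, his-38 and his-40, which share a peak of 260.3, had one. Among 5 vitellogenin genes vit-2 (592) had one and 4 (80.0%) had body summits, against 13.2% of all X genes. let-2 (219.7) was the only member with a start window peak among 10 molting and body shape genes. None of the 3 X genes with a clec symbol (C-type lectins) and none of the 10 with a twk symbol (potassium channels) had one.

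Short sequences known from regulatory sites were searched on both strands within 100 bases to each side of each summit. The core of the dosage compensation motif, GCGCAGGG, was found at 12 of 944 X summits (1.27%, 0.659 to 2.21%) and at 11 of 4851 autosomal summits (0.227%, 0.113 to 0.405%). Over all windows of the same length the core was found in 0.0851% on X and 0.0553% on the autosomes, and over GC-rich windows in 0.482% and 0.247%. Among summits with at least 50% GC the shares were 1.12% on X and 0.270% on the autosomes. By chromosome the X share was highest, and its interval overlapped those of chromosomes II, IV and V, the latter at 0.617% (0.227 to 1.34%). Seen from the motif, 13 of its 81 occurrences on X lay inside a peak interval (16%, 8.83 to 25.9%), against 15 of 233 on the autosomes (6.44%, 3.65 to 10.4%).

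**Figure D5:**
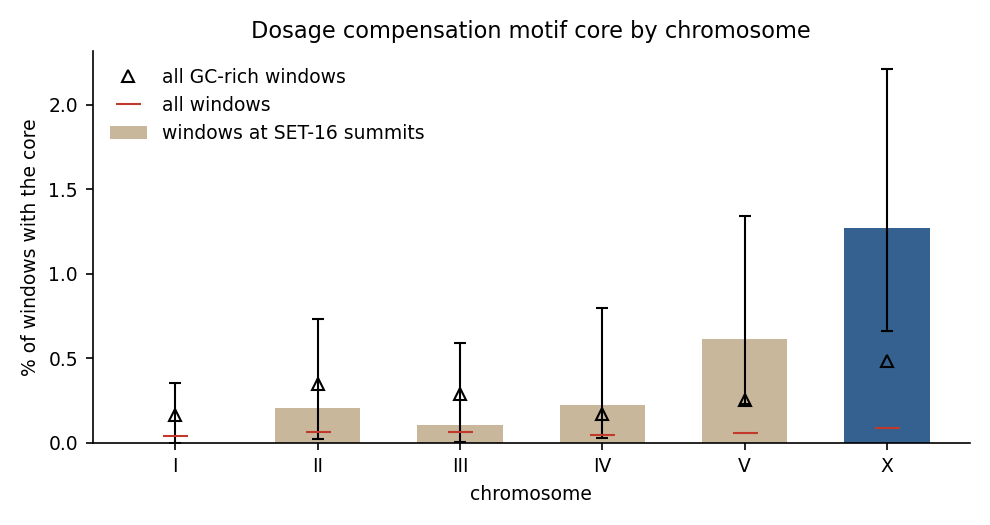
Percent of windows of 100 bases to each side of SET-16 summits that contain the core of the dosage compensation motif, by chromosome (bars, with exact 95% intervals), beside all windows (dashes) and all GC-rich windows (triangles) of the same length. The X bar is at 1.27% and the autosomal bars are at 0 to 0.617%.

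The 12 X peaks with the core were narrow, with a median width of 249.5 bp against 414 bp for the other X peaks, and 10 of them were called in both replicates (83.3%, 51.6 to 97.9%), against 63.9% of the others. None lay in a coding exon. The highest was in an intron of Y15E3A.5 (814, with 538 in replicate 1 and 282 in replicate 2). The next, in an untranslated exon of R04E5.9 (234, with 56.3 and 179), had the higher signal in replicate 2, as did the F20B6.9 peak (186, with 39.7 and 149).

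Several of the other motif peaks lay near known genes. The one 47 bp upstream of jkk-1, which encodes a kinase of the JNK pathway, had 169.5, with 70.9 and 98.6. An intron of svh-5, an Ets-domain gene, held one of 202, with 128 and 78.2, and an intron of the degenerin channel gene deg-1 held one of 116, called in replicate 1 alone. The peak nearest nspc-17 (136) had a GC content of 39.3%, so it was found outside GC-rich sequence. The lowest, nearest R11.3, had 10.6 and no matched summit in the replicates.

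Of the other 5 motifs, GAGAGAGA was found at 6.67% of X summits, in 1.12% of all X windows, in 3.68% of GC-rich X windows and at 6.49% of autosomal summits. CAGCTG was found at 11.9%, in 3.60%, in 8.51% and at 12%, in the same order. TTTCGCGC, an E2F-like site, was found at 2.54%, in 0.492%, in 2.28% and at 1.88%. CACGTG was found at 4.66% of X summits (3.41 to 6.21%), in 2.64% of all X windows, in 3.90% of GC-rich X windows and at 6.45% of autosomal summits (5.78 to 7.18%). The autosomal windows also held it more often than those of X, in 3.48% of all windows and 7.25% of GC-rich windows. The GATA site CTTATCA was rare at X summits, 0.636%, against 3.58% of all X windows and 1.14% of GC-rich X windows. It was also rare at autosomal summits, 1.36%, with 0.514% on V and 2.10% on IV as the extremes. A match is a description of the letters present and was not read as binding by a factor.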

How the data were processed

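ChIP-seq peak lists of 2 biological replicates (1 group) were used as the authors deposited them on ce11 coordinates, which match WBcel235. Per the deposited readme, the peaks were thresholded by irreproducible discovery rate (IDR), with lists for each replicate and for both together; no source used here names the caller or version. The deposited signal of each peak (column 7) has no stated scale. The deposited score of each peak is a scaled IDR, from 830 to 1000 in the thresholded lists. The files give no read counts, so depth is unknown.

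The conservative list was the main list. The second whole-series list and each replicate's thresholded and ranked lists served as alternatives and for replicate support, and 16 unnamed columns of the whole-series ranked lists were not used. Summits were annotated with Ensembl release 115 gene models, and sequences, GC content and repeat marking came from RefSeq WBcel235. Replicate signals were taken from summits within 100 bp. Genes were named by rule: the 15 highest X peaks, the 12 highest start window peaks called in both replicates, the 8 genes with most body summits, members of the 18 lists (up to 4 by signal in larger lists), the 3 densest and 3 sparsest bins, the 3 lowest peaks and up to 4 noncoding genes per class. Further collagen genes, body summits of list members and the motif peaks were named after their values were seen. Members and lists were chosen with earlier results of these data known.

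With 1 group no test between conditions was possible. Shares have exact Clopper-Pearson 95% intervals, which cover counting error only and treat peaks as independent. Counting steps were tested on simulated data. Python 3.11.15, numpy 2.4.6, pandas 2.3.3, scipy 1.17.1 and matplotlib 3.10.9 were used.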

Additional observations from a re-analysis of the deposited data

How the results depend on the processing

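Of 90 alternative values for 17 results, 65 were counted as staying within the interval or count range of the main value and 25 as moving beyond it. Restricting the list to its higher-signal part moved peak density to 27.3 per Mb, median summit GC to 57.2%, genes with a start window peak to 4.54%, X peaks called in both replicates to 91.9% and the replicate ratio to 0.594. The second whole-series list gave 54.7% median GC, against 55.2% in the main list, and 9.48% of genes with a start window peak. The ratio of median signal of X to autosomes was 1.03 in the main list, and no interval is given for it. It was 1.05 in the second list and with 1 summit per interval. Leaving out each replicate in turn gave 23.1 to 27.2% of summits in gene start windows, 24.8 to 29.4% in coding exons, 54.7 to 55.2% median GC and a signal ratio of 1.02 in both cases. A start window of 2000 bp upstream and 500 bp downstream gave 38.3% of summits, 12.9% of genes and 48 list members, and one of 500 and 100 bp gave 5.13% of genes. Windows of 50 bases to each side of the summit gave 57.4% median GC and motif shares of 3.28% (GAGAGAGA), 6.99% (CAGCTG), 2.12% (CACGTG) and 0.953% (TTTCGCGC). A wider centre, from 25 to 75% of the length, held 33.6% of summits, and matching summits within 100 bp put 59.2% of peaks in both replicates. The cause of these shifts was not tested beyond the smaller or larger windows and lists themselves. The X share was above every autosome for the dosage compensation core, and below every autosome for coding exons, under each setting run; the CACGTG share was below every autosome except in the higher-signal part of the list. The place of X among the autosomes changed elsewhere: its centre share fell within their range without replicate 1, its intron share rose above it with either replicate alone and in the higher-signal part, its share of genes with a start window peak rose above it without replicate 2, and its CTTATCA share fell below it without replicate 1 and in the second list. No paired analysis was possible because there was 1 group. Unknown depth limits all values, weak peaks most.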
